A study of Mus musculus with 6 samples.

Results

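The genes described here are 31 genes of the oligodendrocyte lineage, 31 of the 22180 genes that had a probe set of their own. They were chosen by name, as genes known from that lineage, and each was read from 1 probe set that names that gene alone. Where a gene had several such probe sets, as 1 member did (Bcas1), the one with the highest mean over the 6 arrays was taken. All 31 were found, under their current symbols. The members were set into 3 classes by the stage they are known for: 4 precursor genes, 9 genes of committed and newly formed cells, and 18 genes of myelin and mature cells.

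RNA was measured on 6 Affymetrix Mouse Gene 2.0 ST arrays, 1 per neurosphere culture, from CD1 mice aged 2 months. In the MG group, 3 arrays came from offspring whose mothers were injected with MG, read from the series title as methylglyoxal, at 0.5 mg/kg. In the PBS group, 3 arrays came from offspring whose mothers were injected with PBS, the vehicle. Injections were intraperitoneal, 2 a day, from gestational day 12 until birth. All cultures were started from the dissected subependymal region of the adult brain and grown for 7 days in serum-free medium with EGF (20 ng/ml), FGF2 (10 ng/ml), B27 and heparin. Neither the sex nor the litter of the offspring is given by the labels. The titles call the cultures primary neurospheres and the descriptions call them secondary.

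Oligodendrocytes make the myelin that wraps axons in the brain. They arise in steps: precursors divide under PDGF signals, then commit and leave the cell cycle, and at last switch on the proteins and lipids of the myelin sheath. The transcription factors OLIG2 and SOX10 are present throughout, while NKX2-2 and MYRF act in differentiation. Stem cells of the adult subventricular zone give rise to a few oligodendrocytes beside many neurons, and EGF and FGF2 keep cultured progenitors dividing.

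None of the 31 genes passed the test of MG against PBS. The SD was larger in MG than in PBS for every precursor and committed gene, as it was for 60.6% of all genes, and this rested on MG replicate 3. Of the 31 members, 21 were highest in the same MG culture, replicate 1, against 21.1% of all genes. The same held for 6 of 28 lineage genes outside the 31. The genes that varied most, Gpr17, Enpp6, Pdgfra and Matn4, were low in the cultures numbered 3 of both groups, where proliferation genes were high.

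To judge whether a gene was measured above the array's background, a reference level was taken as the 95th percentile of the means of 1394 olfactory and vomeronasal receptor genes, at 5.02 on the log2 scale of the deposited values. Of the 31 members, 28 had means above it in both groups, as did 61.9% of all genes tested. The 3 below it in both groups were Zfp536, Opalin and Ermn. Those nearest above it were Ninj2 (4.95 to 5.48 over the 6 arrays) and Mag (5.15 to 6.05). All 4 precursor genes, 8 of 9 committed genes and 16 of 18 myelin genes were above the reference. Probe sets differ in how strongly they bind, so levels are not compared between genes.

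**Figure D1:**
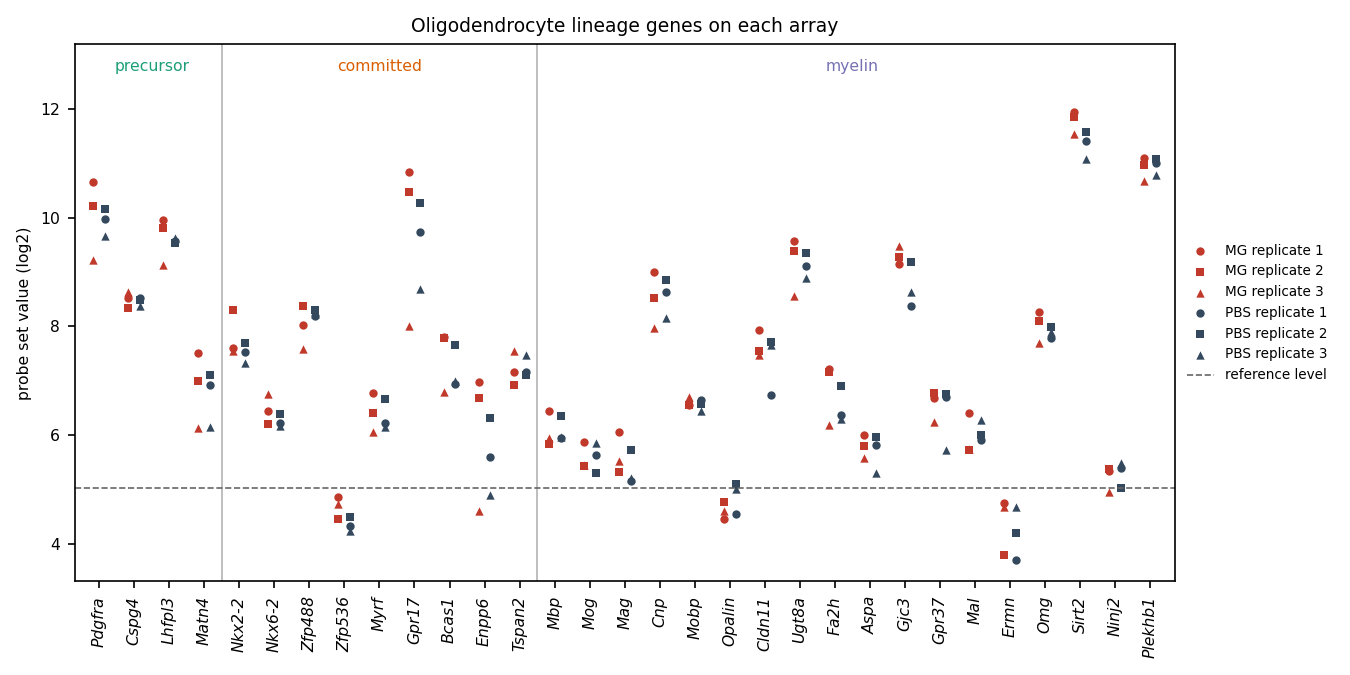
Probe set values on the log2 scale (vertical axis) of the 31 genes (horizontal axis, by class) on the 6 arrays, with MG in red on the left of each gene and PBS in dark blue on its right; symbols mark the replicate number and the dashed line the reference level of 5.02. Gpr17 and Enpp6 have the widest ranges, and Zfp536, Opalin and Ermn lie around or under the line.

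Among the precursor genes, Pdgfra, the receptor through which PDGF drives precursor division, had values of 10.66, 10.23 and 9.22 in MG replicates 1, 2 and 3, against 9.98, 10.16 and 9.67 in PBS. The MG cultures held both the highest and the lowest value, and the PBS values lay between them. MG minus PBS was 0.10 in log2 units (standard error 0.34). Lhfpl3, a membrane protein gene of the LHFPL family that marks precursors, had 9.96, 9.82 and 9.14 in MG, against 9.58, 9.53 and 9.63 in PBS. MG replicate 3 was its lowest array, while its PBS values lay between 9.53 and 9.63. Matn4, which encodes a matrilin of the extracellular matrix, had 7.52, 7.00 and 6.12 in MG, against 6.92, 7.11 and 6.15 in PBS. Here the cultures numbered 3 were the lowest of both groups. Cspg4, the NG2 proteoglycan gene, lay between 8.34 and 8.63 on all 6 arrays, the narrowest range in the class.

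Among the committed genes, Gpr17, a receptor of committed precursors that is known to hold back their maturation, ranged most. Its values were 10.84, 10.48 and 8.00 in MG replicates 1, 2 and 3, against 9.74, 10.28 and 8.70 in PBS. Replicate 3 minus the mean of the other two arrays of its group was -2.66 in MG and -1.31 in PBS on the log2 scale. MG minus PBS was 0.20 in log2 units (standard error 0.72). Enpp6, a choline phosphodiesterase gene that marks newly formed oligodendrocytes, had 6.97, 6.68 and 4.60 in MG, against 5.60, 6.32 and 4.90 in PBS. Both arrays numbered 3 were below the reference level for Enpp6, and the other 4 were above it. Bcas1, a gene of newly forming myelinating cells, had 7.80, 7.79 and 6.80 in MG, against 6.94, 7.66 and 6.99 in PBS.

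The transcription factor genes of this class had narrower ranges. Nkx2-2, a homeodomain factor that promotes differentiation, had values of 7.60, 8.30 and 7.54 in MG, against 7.53, 7.69 and 7.33 in PBS. The groups overlapped, because 1 PBS value was above 2 of the MG values. Myrf, which encodes the membrane-bound factor that turns on myelin genes, had 6.78, 6.40 and 6.05 in MG, against 6.22, 6.67 and 6.15 in PBS. Zfp488, a zinc finger gene of the lineage, had 8.03, 8.38 and 7.59 in MG, against 8.20, 8.30 and 8.23 in PBS, so that only MG replicate 3 stood clearly below the rest. The homeobox gene Nkx6-2 lay between 6.17 and 6.75, and Tspan2, a tetraspanin gene, between 6.92 and 7.55. Tspan2 was the 1 member whose highest values were those of both arrays numbered 3, a pattern that 15.8% of all genes showed. Zfp536, below the reference, had 4.86, 4.45 and 4.73 in MG, against 4.33, 4.49 and 4.23 in PBS.

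None of the genes of the myelin sheath's own proteins separated the groups. Mbp, whose protein compacts the sheath, had values of 6.45, 5.84 and 5.95 in MG, against 5.94, 6.35 and 5.96 in PBS, a log2 difference of -0.00 with a 95% confidence interval from -0.45 to 0.45. Mog, an antigen of the outer sheath surface, lay between 5.30 and 5.87. Mobp, a basic protein of the sheath, lay between 6.44 and 6.70. In these 3 genes the values of the groups overlapped. Mag, an adhesion protein facing the axon, had 6.05, 5.32 and 5.52 in MG, against 5.15, 5.73 and 5.20 in PBS. Cnp, a phosphodiesterase of uncompacted myelin that appears early in the lineage, had 9.01, 8.53 and 7.98 in MG, against 8.64, 8.85 and 8.16 in PBS. Cnp was lowest in the cultures numbered 3. Cldn11, which forms the tight junctions of myelin, had 7.94, 7.55 and 7.47 in MG, against 6.74, 7.71 and 7.65 in PBS, and PBS replicate 1 alone lay far below the others. Opalin, a membrane protein of mature cells, was below the reference level, at 4.45, 4.77 and 4.60 in MG, against 4.55, 5.10 and 5.01 in PBS.

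Of the lipid and metabolic genes, Ugt8a, which makes galactosylceramide, had values of 9.58, 9.40 and 8.57 in MG, against 9.11, 9.35 and 8.89 in PBS. Fa2h, which hydroxylates the fatty acids of myelin lipids, had 7.22, 7.17 and 6.19 in MG, against 6.37, 6.90 and 6.30 in PBS. Both were lowest in the cultures numbered 3. Aspa, which cleaves N-acetylaspartate and so frees acetate for lipid synthesis, lay between 5.30 and 6.00.

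Gjc3 and Sirt2 had the smallest unadjusted p-values. Gjc3, a connexin gene of oligodendrocytes, had values of 9.16, 9.28 and 9.48 in MG, against 8.38, 9.18 and 8.64 in PBS. The lowest MG value, 9.16, was just under the highest PBS value, 9.18, so the groups overlapped. The means were 9.31 ± 0.16 in MG and 8.73 ± 0.41 in PBS (SD, n = 3 each), and MG exceeded PBS by 0.58 in log2 units (standard error 0.21), which is 1.49-fold. Sirt2, an NAD-dependent deacetylase abundant in myelin and present in many cell types, had 11.95, 11.87 and 11.55 in MG, against 11.42, 11.59 and 11.09 in PBS. These groups overlapped by 1 value each, with means of 11.79 ± 0.21 in MG and 11.36 ± 0.25 in PBS (SD, n = 3 each). MG exceeded PBS by 0.42 in log2 units for Sirt2 (standard error 0.17), which is 1.34-fold. In limma's moderated test the unadjusted p was 0.0241 for Gjc3 and 0.0384 for Sirt2, and the Benjamini-Hochberg adjusted p of both was 0.9998, so neither passed.

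The remaining genes of mature cells were close between groups or low. Gpr37, a G protein-coupled receptor, had 6.68, 6.77 and 6.24 in MG, against 6.70, 6.75 and 5.73 in PBS, with both arrays numbered 3 at the bottom. Omg, a myelin glycoprotein that neurons also make, lay between 7.69 and 8.26. Plekhb1, a pleckstrin homology domain gene, lay between 10.68 and 11.11. The groups of Omg and Plekhb1 overlapped. Mal, a proteolipid of membrane traffic, had 6.40, 5.72 and 5.74 in MG, against 5.90, 6.00 and 6.27 in PBS. Ermn, a cytoskeletal protein gene of mature cells, was below the reference at 3.69 to 4.75. Ninj2, an adhesion molecule gene, lay near it at 4.95 to 5.48.

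The comparison of MG with PBS asks whether oligodendrocyte lineage expression in adult cultures differed after the prenatal injections. None of the 31 members passed limma's test after adjustment over all genes, and none of the 22180 genes did (0%). The lowest adjusted p among the members was 0.9998. Before adjustment, 2 members, Gjc3 and Sirt2, had p under 0.05, as did 3.21% of all genes, 712. Both were higher in MG, as were 1.81% of all genes at that mark. Without MG replicate 3 there were 7 such members (Pdgfra, Lhfpl3, Gpr17, Bcas1, Enpp6, Fa2h and Sirt2) and 4.24% of all genes, and without PBS replicate 3 there were 0 and 3.02%. Without MG replicate 1 there was 1 such member and 4.31% of all genes, and without PBS replicate 1 there was 1 and 1.88%. With the ordinary linear model in place of moderated variance, no gene passed after adjustment, and 0 members and 712 genes had an unadjusted p under 0.05. The values of the 2 groups overlapped in all 31 members. They failed to overlap in 7.34% of all genes and in 5.46% of the genes above the reference in both groups. A count of 0 among 31 is not far from these shares. In these bulk cultures, fewer cells of a type and less RNA per cell cannot be told apart.

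Means were higher in MG in 22 of 31 members and lower in 9, where 53.8% of all genes and 56.9% of the genes above the reference were higher. With each array centred on its median, 26 members and 65.5% of all genes were higher. The 4 precursor genes were all higher, by 0.04 to 0.15, with a median log2 difference of 0.08. Of the committed genes 7 of 9 were higher, with a median of 0.21 and a range from -0.24 (Zfp488) to 0.48 (Enpp6). Of the myelin genes 11 of 18 were higher, with a median of 0.08 and a range from -0.28 (Opalin) to 0.58 (Gjc3). The median over all genes tested was 0.01. These medians moved with single cultures and with other settings. Without MG replicate 1 they were -0.13 for precursor, 0.04 for committed and -0.00 for myelin genes, and without MG replicate 3 they were 0.41, 0.30 and 0.21. Without PBS replicate 3 they were -0.02, 0.13 and 0.00. Without PBS replicate 2 they were 0.13, 0.38 and 0.18, without PBS replicate 1 that of myelin genes was 0.04, and without MG replicate 2 those of precursor and committed genes were 0.05 and 0.10. Without both arrays numbered 3 those of precursor and myelin genes were 0.29 and 0.16, with array weights that of precursor genes was 0.18, and with median centring both were 0.12. Confidence intervals of 95% ran from -0.22 to 0.33 for Mobp and from -1.46 to 1.86 for Gpr17, so the arrays limit a difference in Gpr17 far less than one in Mobp.

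**Figure D2:**
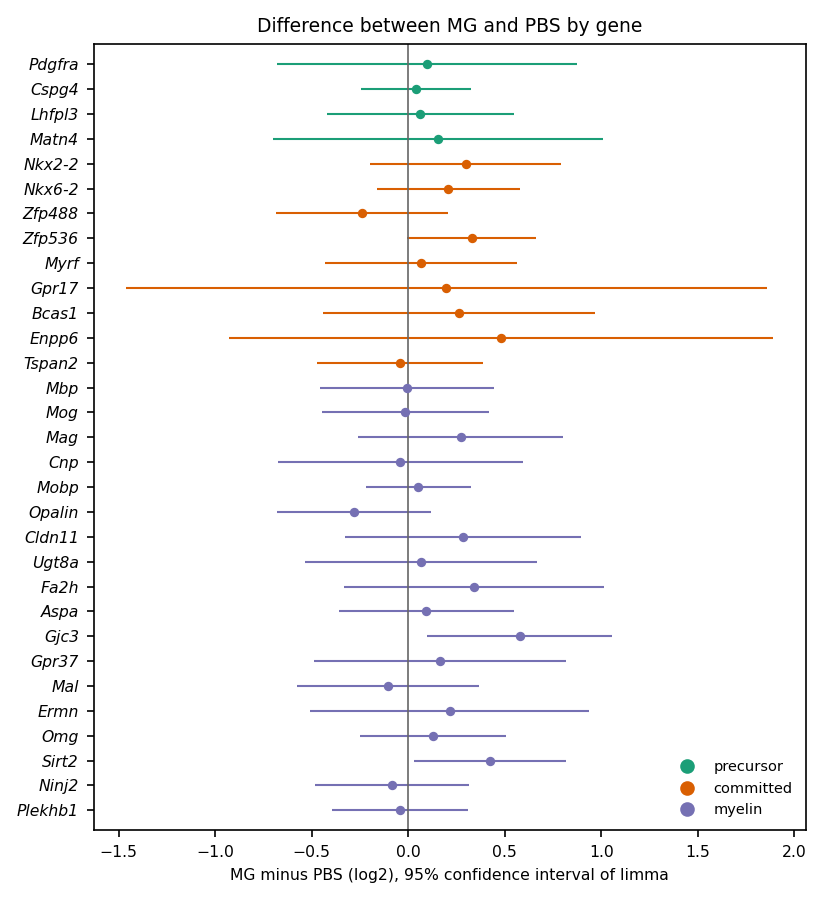
Log2 difference of the means, MG minus PBS (horizontal axis), for each of the 31 genes (vertical axis, coloured by class), with points for the estimate and bars for its 95% confidence interval in limma. The unadjusted intervals of Gjc3 and Sirt2 lie above 0 and those of the other 29 genes include it, the lower end for Zfp536 being -0.01.

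Differences within each replicate number were also read. Of the cultures with equal numbers, only those numbered 3 were each other's closest match over the genes above the reference. MG replicate 1 matched PBS replicate 2 most closely (correlation 0.46), and MG replicate 2 matched PBS replicate 1 (0.37). Pairs 1 and 2 below are therefore pairs by number alone. Gjc3 was higher in MG in all 3 pairs, by 0.79, 0.10 and 0.84, and so was Sirt2, by 0.53, 0.28 and 0.46. The third such gene was Nkx2-2, by 0.07, 0.61 and 0.21, which makes 3 of 31 members where 12.8% of all genes did the same. Opalin alone was lower in all 3 pairs, with differences of -0.10, -0.33 and -0.41, where 10.4% of all genes were. The most variable genes changed sign with the number: Gpr17 differed by 1.09, 0.20 and -0.70, Pdgfra by 0.68, 0.07 and -0.46, and Enpp6 by 1.38, 0.37 and -0.30. For these 3 genes the MG culture was the higher one in pairs 1 and 2 and the lower one in pair 3.

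The 31 members had a wider spread between cultures than most genes, as some other groups did. The within-group SD, pooled over both groups, had a median of 0.31 over the 31 members, against 0.18 over all 13725 genes above the reference in both groups. That median was 0.26 over the 28 other lineage genes, 0.39 over astrocyte markers, 0.31 over proliferation genes and 0.30 over neuroblast and neuron markers. It exceeded the 90th percentile of those genes, 0.37, in 11 of the 31, where 10% of genes lie by definition. The 11 were Pdgfra and Matn4 of the precursor class, Gpr17, Bcas1 and Enpp6 of the committed class, and 6 myelin genes, of which Cldn11, Ugt8a, Cnp, Gpr37 and Fa2h were above the reference and Ermn was below it. Bcas1 was read from 1 of several probe sets. With these averaged, the standard error of its MG minus PBS difference was 0.22 in place of 0.31, and its place among the 11 was not tested. The SD of Gpr17 was 1.23 and that of Enpp6 1.04. The steadiest members were Mobp, with an SD of 0.09, and Cspg4, with 0.12, both under the median of all genes.

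The MG cultures differed among themselves more than the PBS cultures did for precursor and committed genes. The SD was larger in MG for 4 of 4 precursor genes, 9 of 9 committed genes and 9 of 18 myelin genes, 22 of 31 in all, and for 60.6% of all genes. It was also larger in MG for 19 of the 28 other lineage genes, among them 7 of 10 precursor and 5 of 6 committed genes. The same held for 6 of 7 astrocyte markers and 4 of 9 proliferation genes. The median SD of precursor genes was 0.57 in MG and 0.16 in PBS, that of committed genes 0.39 in MG and 0.20 in PBS, and that of myelin genes 0.27 in MG and 0.29 in PBS. Gpr17 had an SD of 1.55 in MG and 0.80 in PBS, and Lhfpl3 one of 0.44 in MG and 0.05 in PBS. The count of 22 members rested on MG replicate 3. Without that culture the SD was larger in MG for 13 of 31 members, with 3 of 4, 4 of 9 and 6 of 18 in the 3 classes, and for 41.7% of all genes. Without both arrays numbered 3 it was larger for 18 members, with 4 of 4, 5 of 9 and 9 of 18 in the 3 classes, and for 57.2% of all genes. Whether the classes differ in this respect was not tested.

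**Figure D3:**
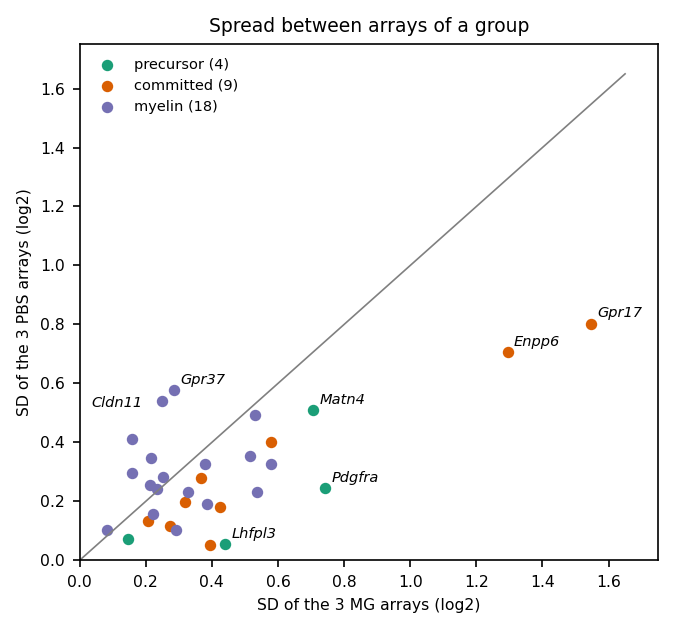
SD of the log2 values over the 3 MG arrays (horizontal axis) and over the 3 PBS arrays (vertical axis) for each of the 31 genes, coloured by class, with the line of equal SD. All 13 precursor and committed genes lie to the right of the line, where MG has the larger SD, as do 9 of the 18 myelin genes.

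The order of the arrays was shared by many members. MG replicate 1 was the highest of the 6 arrays for 21 of 31 members, where it was so for 21.1% of all genes, and MG replicate 3 was the lowest for 14, against 23.2% of all genes. MG replicate 1 was highest for 3 of 4 precursor, 5 of 9 committed and 13 of 18 myelin genes, and MG replicate 3 lowest for 3, 5 and 6. Outside the members, MG replicate 1 was highest for 6 of the 28 other lineage genes (21.4%) and for 5 of 7 astrocyte markers. MG replicate 3 was lowest for 11 and 3 of them. High values on MG replicate 1 were thus neither shared by the other lineage genes nor particular to the lineage. The 2 lowest arrays were both those numbered 3 in 11 members, against 15.7% of all genes. These were Pdgfra, Matn4, Gpr17, Enpp6, Myrf, Cnp, Ugt8a, Fa2h, Aspa, Gpr37 and Plekhb1. With the 6-array mean of every gene subtracted, the precursor genes averaged 0.45, 0.13 and -0.44 in MG replicates 1, 2 and 3, and 0.03, 0.10 and -0.26 in PBS. The committed genes averaged 0.37, 0.28 and -0.39 in MG, and -0.13, 0.20 and -0.33 in PBS. The myelin genes averaged 0.29, 0.03 and -0.15 in MG, and -0.15, 0.11 and -0.13 in PBS, so that the step at the arrays numbered 3 was smaller in this class and PBS replicate 1 was as low as they were.

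Of the marker lists, the astrocyte markers followed a like order, and the proliferation genes and Schwann cell markers were high on the arrays numbered 3. The 9 proliferation genes measured, among them Mki67, Pcna and Mcm2, averaged -0.07, -0.24 and 0.38 in MG, and -0.36, -0.10 and 0.39 in PBS, and all 9 were above their own means on both arrays numbered 3. The 7 astrocyte markers averaged 0.34, 0.28 and -0.40 in MG, and -0.07, 0.22 and -0.36 in PBS, which is close to the order of the committed genes. Of these 7, 2 were above their own means on MG replicate 3 and 0 on PBS replicate 3. Aqp4, the water channel of astrocytes and the marker with the widest range, had values of 10.28, 10.27 and 8.60 in MG, against 9.84, 10.08 and 8.61 in PBS. Other astrocyte markers departed from that order. Slc1a3 lay between 11.98 and 12.19, and Gjb6, below the reference, was lowest on MG replicate 1 (3.93). Gfap was higher in PBS replicate 3 (6.39) than in PBS replicate 1 (5.95). The 6 stem and progenitor markers, among them Nes and Sox2, moved little as an average, between -0.08 and 0.11. Prom1, also among them, ranged more, with 8.15, 7.75 and 7.47 in MG, against 7.91, 8.32 and 7.46 in PBS. It was lowest on both arrays numbered 3. The 6 neuroblast and neuron markers averaged 0.24, 0.10 and -0.16 in MG, and -0.15, 0.05 and -0.07 in PBS. The part of proliferation, neuronal and of astrocyte-like expression in the values of the lineage genes was not tested.

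**Figure D4:**
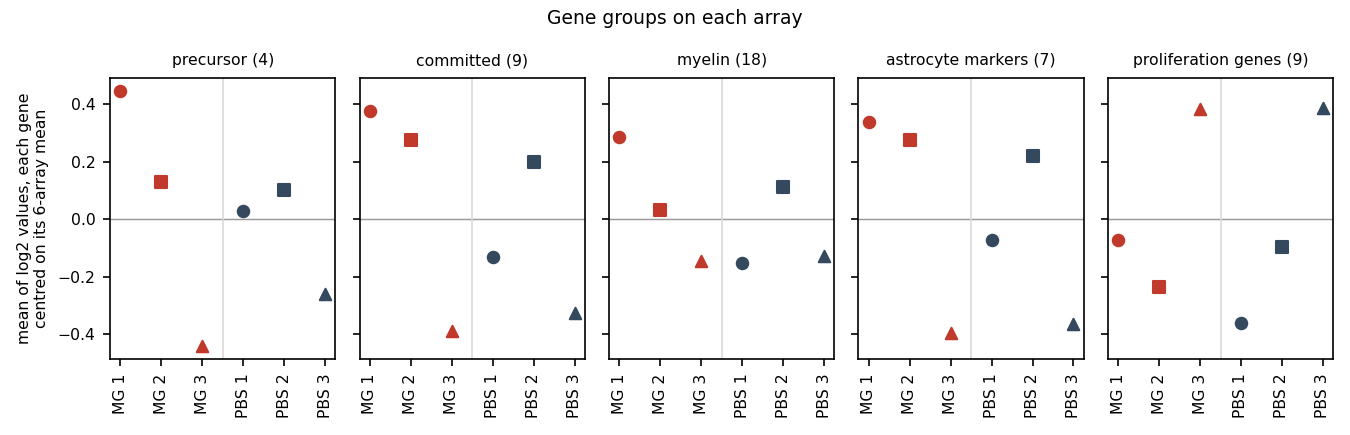
Mean log2 value of each gene group on each array (vertical axis), after every gene was centred on its 6-array mean; the panels are the 3 classes of lineage genes, the astrocyte markers and the proliferation genes, with the number of genes in parentheses, and MG (red) stands left of PBS (dark blue). The arrays numbered 3 (triangles) lie lowest for precursor, committed and astrocyte genes and highest for proliferation genes.

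Markers of the cells that could share Pdgfra or Cspg4 were mixed. Pericytes and smooth muscle cells also make Cspg4 RNA, and fibroblasts also make Pdgfra RNA. Of 10 markers of those cells 5 were above the reference in both groups. Pdgfrb, the receptor of mural cells, lay between 4.66 and 5.25, and the matrix gene Dcn between 3.47 and 4.10, while Acta2 lay between 8.83 and 10.82. Dcn, below the reference in both groups, had a mean of 3.57 in MG and 3.96 in PBS, while Acta2 had one of 10.48 in MG and 9.72 in PBS. Both had an adjusted p of 0.9998 in limma, with unadjusted p of 0.0126 for Dcn and 0.0733 for Acta2. The part of these cells in the values of Pdgfra and Cspg4 was not tested. Averaged and centred as above, the 10 markers lay between -0.06 and 0.02 in MG, and between -0.07 and 0.13 in PBS. Of the 5 microglial markers, Cx3cr1 (5.65 to 6.20) and P2ry12 (5.12 to 5.67) were above the reference in both groups, Csf1r only in PBS, and Aif1 and Tmem119 in neither. Of 4 Schwann cell markers, which other glia also express in part, all were above the reference, and Pmp22, a myelin protein gene of peripheral nerve, lay between 7.44 and 8.69. After centring, these 4 averaged -0.23, -0.15 and 0.21 in MG, and 0.07, -0.21 and 0.30 in PBS. The 5 endothelial markers averaged 0.00, 0.02 and -0.16 in MG, and 0.19, 0.11 and -0.15 in PBS, after centring.

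Other lineage genes that are not among the 31 had a mixed pattern, and none passed the test. Of the 28 such genes analysed, means were higher in MG in 15 and lower in 13, with a median log2 difference of 0.03, and no member of this list had an unadjusted p under 0.05. By class, means were higher in MG in 7 of 10 precursor, 5 of 6 committed and 3 of 12 myelin genes of this list. The median log2 differences were 0.05, 0.16 and -0.08, so the added myelin genes were mostly lower in MG, unlike the myelin members. Olig1 and Olig2, the helix-loop-helix factors that define the lineage, were steady: Olig1 lay between 12.40 and 12.58 and Olig2 between 12.65 and 12.88. Their log2 differences were -0.03 and 0.02, with 95% confidence intervals from -0.30 to 0.24 and from -0.25 to 0.29. Sox10, which acts with them, had 7.96, 8.23 and 7.52 in MG, against 7.68, 8.14 and 7.49 in PBS, with the cultures numbered 3 lowest in both groups.

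The 6 added committed genes did not share one order. Nfasc and Fyn were lowest on both arrays numbered 3, and Itpr2 was lowest on PBS replicate 3, while the other 3, given here after their values were seen, were higher there. Tmem98, a membrane protein gene that interacts with Myrf, had 8.94, 9.82 and 10.49 in MG, against 9.33, 9.16 and 10.39 in PBS. Sox8, a relative of Sox10, had 10.35, 10.67 and 11.11 in MG, against 10.40, 10.47 and 10.80 in PBS. Tcf7l2, a Wnt effector of differentiating cells, had 7.40, 7.98 and 8.24 in MG, against 7.59, 7.58 and 7.95 in PBS. In these 3 genes the array numbered 3 was the highest of its group. The 4 genes of the added list with the smallest unadjusted p were Cntn2, Klk6, Neu4 and Gjb1, with log2 differences of -0.23, -0.23, -0.23 and -0.15 and unadjusted p from 0.162 to 0.304. Of these, Klk6 was below the reference level in both groups.

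The PDGF ligands gave no difference past the test. Pdgfa, the ligand of the precursor receptor, had values of 6.87, 6.84 and 6.62 in MG, against 6.64, 6.68 and 6.67 in PBS. Pdgfc, another ligand of that receptor, had 7.58, 8.41 and 8.58 in MG, against 8.40, 8.32 and 8.40 in PBS, so MG replicate 1, the array with the highest Pdgfra, had the lowest Pdgfc. Pdgfb lay between 4.98 and 5.53 and Pdgfd, below the reference, between 3.96 and 4.94.

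Promoter sequences are shown for members that were low together. They are those with both arrays numbered 3 lowest, a range of at least 1 on the log2 scale and a single start in the RefSeq promoter table (GRCm38.p6), each given as the 250 bases before the start, 5′ to 3′ on the gene's strand. Capitals mark matches on either strand to 3 short motifs, the SOX core (ACAAAG or ACAATG), the MYRF core (CTGGCAC or CTGGTAC) and an E-box (CAGCTG or CATCTG), which do not overlap each other here.
Pdgfra (chr5:75152001-75152250, + strand): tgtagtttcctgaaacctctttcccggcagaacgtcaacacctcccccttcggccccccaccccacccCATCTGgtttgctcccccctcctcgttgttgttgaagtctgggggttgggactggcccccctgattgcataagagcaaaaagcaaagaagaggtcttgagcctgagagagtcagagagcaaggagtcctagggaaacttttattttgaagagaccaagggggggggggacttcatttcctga
Enpp6 (chr8:46986637-46986886, + strand): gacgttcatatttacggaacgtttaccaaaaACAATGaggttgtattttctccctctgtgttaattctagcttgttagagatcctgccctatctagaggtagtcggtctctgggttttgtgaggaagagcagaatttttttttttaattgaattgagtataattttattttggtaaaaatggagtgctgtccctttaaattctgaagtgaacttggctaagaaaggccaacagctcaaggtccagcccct
Cnp (chr11:100574689-100574938, + strand): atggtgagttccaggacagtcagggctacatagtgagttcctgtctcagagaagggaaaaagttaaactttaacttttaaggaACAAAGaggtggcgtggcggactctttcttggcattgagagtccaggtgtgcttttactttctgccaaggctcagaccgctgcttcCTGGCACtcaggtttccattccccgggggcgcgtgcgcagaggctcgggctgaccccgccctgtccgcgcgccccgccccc
Ugt8a (chr3:125938653-125938902, - strand): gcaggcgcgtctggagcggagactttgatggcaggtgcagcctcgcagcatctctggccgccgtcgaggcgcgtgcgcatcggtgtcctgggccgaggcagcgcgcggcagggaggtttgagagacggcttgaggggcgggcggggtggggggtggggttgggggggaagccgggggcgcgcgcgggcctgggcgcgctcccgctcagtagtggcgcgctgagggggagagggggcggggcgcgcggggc
Gpr37 (chr6:25689981-25690230, - strand): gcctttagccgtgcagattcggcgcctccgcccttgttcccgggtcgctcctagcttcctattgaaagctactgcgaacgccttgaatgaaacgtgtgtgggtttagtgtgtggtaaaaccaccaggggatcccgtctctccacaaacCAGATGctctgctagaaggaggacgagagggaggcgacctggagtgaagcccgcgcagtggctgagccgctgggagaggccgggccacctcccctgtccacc

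None of the 3 motifs was present in all 5 promoters shown. Counting the base before the start as -1, the SOX core began at -219 in Enpp6 and at -167 in Cnp, the MYRF core at -81 in Cnp, and the E-box at -182 in Pdgfra and at -102, on the opposite strand, in Gpr37. Ugt8a had none of the 3. Myrf, Gpr17, Bcas1, Mbp, Fa2h and Omg had no start among the promoters used. Over the 25 members counted, which have 30 starts, the SOX core was present in 33.3% of promoters. It was present in 25.2% of the 32851 promoters of the table outside chromosome 18. The MYRF core was present in 13.3% of them, in Mog, Mag and Cnp, against 5.93% of all, and the E-box in 33.3%, against 25.5% of all. The counts include the starts of Mag, whose windows overlap. A match describes the letters of the window only.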

How the data were processed

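Log2 values per probe set and array were deposited by the authors. The scale was read from their range, and per the submitters' processing notes Partek 6.6 was used. Their background correction, normalisation and summarisation were not given in the sources used here. Array medians lay between 5.25 and 5.42, and the number of arrays limits the precision. Probe sets were named through the platform annotation, with symbols updated through RefSeq (GRCm38.p6).

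MG was compared with PBS in limma 3.58.1 under R 4.3.3, with a two-sided moderated test (lmFit, then eBayes) and no covariates, over 22180 genes, with Benjamini-Hochberg adjustment and a threshold of 0.05. P-values measure the spread among 3 cultures a group, which may share a mother. The steps were tested on simulated data. Figures used matplotlib 3.10.9.

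Members, classes, lists and the rule for named genes (all members, 3 further lineage genes chosen by name and 4 by smallest p, PDGF ligands, defining markers) were chosen with earlier results of these data known. The 6 added committed genes were named after their values were seen. The labels do not say what the replicate number marks. The main fit has no pairing, and equal numbers were treated as pairs only in the replicate block and in the differences within each number. Deviations from group means correlated at 0.33, 0.12 and 0.62 for equal numbers over 13725 genes. MG replicate 1 correlated more with PBS replicate 2 (0.46) and MG replicate 2 more with PBS replicate 1 (0.37). Pairs 1 and 2 therefore rest on the number alone. Alternatives were a dim filter, other probe set rules, scalings, moderation, array weights, the replicate block and arrays left out.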

Additional observations from a re-analysis of the deposited data

How the results depend on the processing

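No member passed limma's adjusted threshold under any alternative run. The count of members with an unadjusted p under 0.05 was 2, where 3.21% of all genes had one. It was 1 with all probe sets tested (3.12% of all probe sets), 0 with no moderation (3.21% of all genes), 5 without both arrays numbered 3 (4.81%), and 0 to 7 with 1 array left out (1.88% to 4.31%). The count with a larger SD in MG was 13 without MG replicate 3, an alternative chosen after seeing the data, and 13 to 26 over the arrays left out. The count with a higher mean in MG was 15 to 27 with 1 array left out, and 51.1% to 54.8% of all genes were higher. With the replicate block, which treats equal numbers as pairs, 0 members passed after adjustment and 2 had an unadjusted p under 0.05, Gjc3 (0.0120) and Sirt2 (0.00991), where 4.79% of all genes did, so the pairing changed no call.

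The dim filter, the test of all probe sets, both moderation settings and the replicate block leave every log2 difference as it was by construction. Under the other settings, single arrays left out apart, 17 differences turned sign. Under quantile normalization they were 0.0035 for Mbp and 0.0300 for Mog. Median centring adds nearly the same amount to every gene, moving the median of all genes to 0.05 from 0.01, and with it they were 0.0003 for Tspan2, 0.0373 for Mbp, 0.0258 for Mog and 0.0015 for Cnp. With array weights they were -0.0472 for Cspg4, 0.0106 for Mog, -0.0090 for Mobp and 0.0282 for Ninj2. Without both arrays numbered 3 they were -0.0674 for Cspg4, 0.1790 for Mog, 0.0276 for Cnp, -0.0521 for Mobp, -0.0035 for Gpr37, 0.1083 for Mal and 0.1369 for Ninj2. Apart from median centring, the cause was not tested.

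With 1 array left out, 41 of 186 differences turned sign, in 19 members. Precursor genes ranged from -0.2162 to 0.5069 (Pdgfra), -0.0266 to 0.1185 (Cspg4), -0.0979 to 0.3136 (Lhfpl3) and -0.1644 to 0.5345 (Matn4). Committed genes ranged from -0.1213 to 0.2457 (Myrf), -0.3361 to 1.0849 (Gpr17) and -0.2117 to 0.1051 (Tspan2). Of the sheath protein genes, the ranges were -0.1917 to 0.1298 (Mbp), -0.1667 to 0.1139 (Mog), -0.2927 to 0.2224 (Cnp), -0.0038 to 0.0981 (Mobp) and -0.0277 to 0.4569 (Cldn11). For other myelin genes they were -0.1312 to 0.3723 (Ugt8a), -0.1017 to 0.2284 (Aspa), -0.1662 to 0.3452 (Gpr37), -0.3271 to 0.0109 (Mal), -0.0319 to 0.5196 (Ermn), -0.2219 to 0.0491 (Ninj2) and -0.1396 to 0.0789 (Plekhb1). Genes near the reference level, such as Ninj2, are limited by signal over background.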
